A study of Mus musculus with 20 samples.

Results

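Levels of 10 core cardiac transcription factor mRNAs were examined in whole hearts of mice with iron-deficiency anemia. The 10 genes, *Gata4*, *Nkx2-5*, *Mef2a*, *Mef2c*, *Mef2d*, *Tbx5*, *Tbx20*, *Hand2*, *Srf* and *Myocd*, were chosen by name from the 23420 genes counted. All 10 passed the filter on low counts, as did 13590 genes in all. The hearts came from male wild-type C57BL/6 mice (C57BL/6J in the study's methods) aged 9 weeks. Of these, 10 had a control diet and 10 an iron-deficient diet for the last 6 weeks, from weaning age at 3 weeks, and the second group was anemic (IDA mice). The model is one of diet only, with no transgene. Per the study's methods, each library came from an amount of crushed tissue of 1 heart, with its cell types mixed.

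The cardiac transcription factors bind DNA together at the promoters and enhancers of contractile, conduction and metabolic genes. GATA4 is a zinc finger protein, NKX2-5 a homeodomain protein, TBX5 and TBX20 are T-box proteins and HAND2 is a basic helix-loop-helix protein. SRF and the MEF2 proteins carry a MADS box, and SRF drives muscle genes through its coactivator myocardin, the product of *Myocd*. In the adult heart these proteins keep up the muscle program and take part in responses to load and to low oxygen.

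The SRF and MEF2 proteins each bind a short A/T-rich element, named the CArG box and the MEF2 site. The promoters of the *Srf* and *Mef2a* genes are shown because each holds the element of its own protein family. Of the 10 factors, 7 had promoter windows in RefSeq (build GRCm38.p6, the same primary assembly as mm10), 9 windows in all, each running from 250 bases before to 50 bases after an annotated start. *Gata4*, *Tbx5* and *Myocd* are named only. The 150 bases before the *Srf* start, on the minus strand at chr17:46556163-46556312, hold 2 CArG boxes, in capitals, whose first bases lie 82 and 62 bases before the start. The stretch from 150 bases before to 8 bases after the *Mef2a* start, on the minus strand at chr7:67372851-67373008, ends in a MEF2 site, in capitals.
Srf promoter: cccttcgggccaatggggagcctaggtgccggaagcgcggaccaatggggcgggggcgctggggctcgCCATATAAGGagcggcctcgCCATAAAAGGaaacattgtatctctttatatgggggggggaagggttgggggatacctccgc
Mef2a promoter: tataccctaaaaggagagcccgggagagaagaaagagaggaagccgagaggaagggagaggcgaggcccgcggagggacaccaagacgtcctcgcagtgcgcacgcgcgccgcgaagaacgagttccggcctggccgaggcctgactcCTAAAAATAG
Both strands were searched. A CArG box occurred in 1.63% of the 32851 RefSeq windows and in the *Srf* window alone of the 9. A MEF2 site occurred in 3.19% of all windows and in the *Mef2a* window alone of the 9. The other sequences searched were AGATAA for GATA factors (11.2% of all windows; the *Hand2* window), GGTGTG for T-box factors (19.0% of all windows; a *Mef2a* and a *Mef2c* window) and ACGTG, the core of the hypoxia response element (19.6% of all windows; the *Hand2* and *Tbx20* windows). AAGTG, the core of the NKX2-5 site, was in 46.4% of all windows and in 5 of the 9. CANNTG, the E-box, was in 72.3% of all windows and in 4 of the 9. AAGTG and the E-box can overlap. A match is a description of the letters, not of binding.

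Between 6797180 and 8960688 read pairs were counted on genes in each control heart, and between 6682177 and 7833916 in each IDA heart. The 10 factors had at most 2571 read pairs in a heart. Levels are given in CPM, which are counts scaled to library size with TMM factors. Fold changes come from edgeR's quasi-likelihood test over all 20 hearts, with p-values adjusted over the 13590 genes tested and called below 0.05. Fold changes of all genes fell with exonic length (Spearman's rho = -0.63 over 13590 genes) and rose with the GC content of the counted exons (rho = 0.495 over 13383 genes). They are correlations across genes, which are not independent replicates. The per-heart slope of deviation on log2 length was 0.0205 to 0.199 in the 10 control hearts and -0.254 to -0.0252 in the 10 IDA hearts. The slope on GC content, per 10 percentage points, was -0.247 to -0.0306 in control and 0.0189 to 0.274 in IDA hearts. Neither the length slopes nor the GC slopes overlapped between the groups, and their cause was not tested. Fold changes are therefore also given after a correction for each heart's trend on length, and after a joint correction for its trends on length and GC content. The corrections remove a trend whether it is technical or biological.

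Transcripts of the MEF2 family, *Tbx20* and *Myocd* were lower in IDA hearts, while those of *Nkx2-5*, *Srf* and *Hand2* were higher. *Gata4* and *Tbx5* did not pass the test. In all, 8 of the 10 factors were called, beside 67.5% of all genes tested, so the count is near the background. The 3 higher factors compare with 35.0% of all genes called higher, and the 5 lower factors with 32.5% called lower. The median log2 fold change of the 10 factors was -0.27, and that of all genes tested was 0.02. CPM ranges of the groups did not overlap for *Mef2a*, *Mef2c*, *Nkx2-5* and *Srf*, 4 of 10 factors, beside 11.3% of all genes tested (4.97% with IDA hearts above and 6.28% with IDA hearts below). With the length correction, 7 factors were called (54.1% of all genes), 2 higher (24.6%) and 5 lower (29.5%). The joint correction left 5 called (45.2% of all genes), 0 higher (19.7%) and 5 lower (25.5%), and the GC correction alone 7 (60.6% of all genes), 0 higher (29.6%) and 7 lower (31.0%). *Mef2a*, *Mef2d*, *Tbx20* and *Myocd* were called lower with and without the corrections. Fewer cells of a type and less RNA per cell cannot be told apart in whole hearts.

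**Figure D1:**
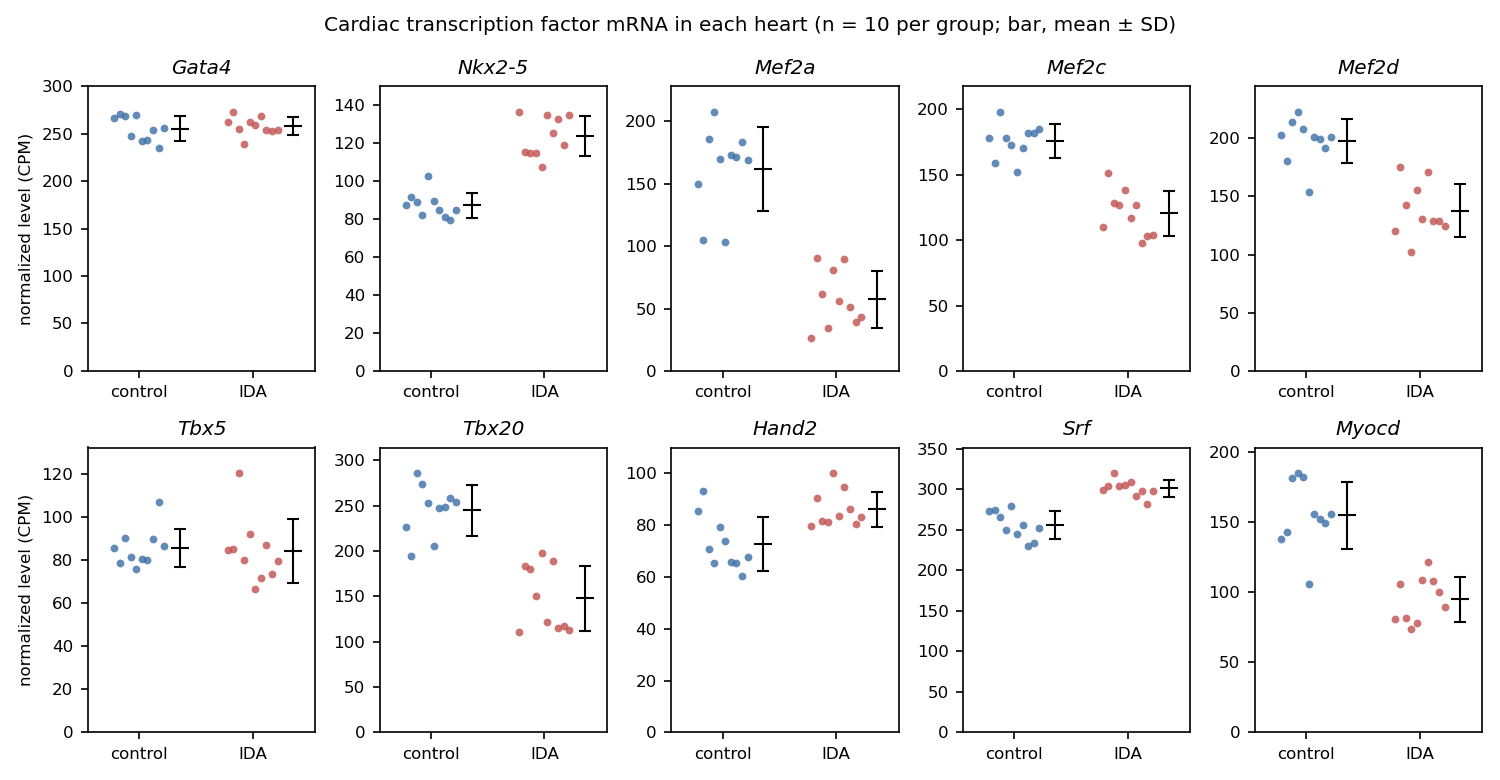
Normalized level in CPM (vertical axes, from 0) of each of the 10 transcription factors in each of the 10 control hearts (blue) and 10 IDA hearts (red), with the mean ± SD as a bar beside the points. All IDA hearts lie below all control hearts for *Mef2a* and *Mef2c* and above them for *Nkx2-5* and *Srf*, and the points of *Gata4* and *Tbx5* overlap.

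The MEF2 proteins are transcription factors of muscle genes whose activity is held down by class IIa histone deacetylases. *Mef2a* (chromosome 7, 67233827 to 67372858, minus strand, mm10) is the family member known for a role in mitochondrial upkeep in the adult heart. Its level was 103.4 CPM in the lowest control heart, 170.8 at the median and 207.5 in the highest. In IDA hearts it was 26.5 CPM in the lowest, 53.8 at the median and 90.3 in the highest. Every IDA heart was below every control heart. The mean went from 161.9 ± 33.8 CPM (SD, n = 10) to 57.3 ± 23.1 CPM (SD, n = 10), for a log2 fold change of -1.50 ± 0.19 (SE, adjusted p = 6.9e-07 by edgeR's quasi-likelihood test). It was the largest change among the 10 factors with no correction, with the length correction (-1.53, adjusted p = 1.64e-06) and with length and GC correction (-1.37, adjusted p = 2.69e-06). The counted exons of *Mef2a* come to 19.6% of the exonic length that GENCODE gives the gene, so the value rests on that part. That share was 41.1% for *Mef2d*, 41.8% for *Mef2c* and 57.4% for *Tbx20*. *Srf* had 4093 bp of counted exons, beside 2893 bp in GENCODE. The RPKM order and MEF2 shares given below rest on the counted exons. In GENCODE, *Mef2a* shares exon bases with *Lysmd4*, where unstranded reads of the pair cannot be told apart.

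*Mef2d* (chromosome 3, 88142395 to 88169167, plus strand), the paralog tied to stress-dependent remodeling of the heart, had 154.3, 201.5 and 222.7 CPM in the lowest, median and highest control heart. The IDA hearts had 102.2, 129.8 and 175.0 CPM. Of the 10 IDA hearts, 7 were below the lowest control heart. The test gave a log2 fold change of -0.52 ± 0.08 (SE, adjusted p = 7.37e-06). It became -0.61 with the length correction (adjusted p = 7.16e-06) and -0.80 with length and GC correction (adjusted p = 4.78e-06).

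*Mef2c* (chromosome 13, 83504034 to 83667079, plus strand), which is needed for formation of the right ventricle in the embryo, had 152.4, 178.3 and 198.2 CPM in the lowest, median and highest control heart. IDA hearts stood at 97.5, 122.0 and 151.7 CPM. The ranges did not overlap, and the test gave a log2 fold change of -0.55 ± 0.07 (SE, adjusted p = 6.66e-07). It was -0.18 with the length correction (adjusted p = 0.00907) and -0.02 with length and GC correction (adjusted p = 0.734, 95% interval -0.12 to 0.08), so the call did not hold there. *Mef2c* had 6565 bp of counted exons at 41.1% GC, and the decile of genes lowest in GC had a median log2 fold change of -0.34.

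*Srf* (chromosome 17, 46546839 to 46556162, minus strand), whose promoter with 2 CArG boxes is printed above, had 230.1, 253.7 and 279.4 CPM in the lowest, median and highest control heart. The same values in IDA hearts were 281.8, 301.4 and 319.5 CPM. Every IDA heart was above every control heart. In the fit, the log2 fold change stood at 0.24 ± 0.04 (SE, adjusted p = 9.24e-06) and 0.38 with the length correction (adjusted p = 9.65e-07). The joint correction gave 0.00 (adjusted p = 0.993, 95% interval -0.11 to 0.11), and with the GC correction alone it was -0.15 (adjusted p = 0.0278), in the other direction. The GC content of *Srf* (64.4%) was read from 63.6% of its counted bases.

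*Myocd* (chromosome 11, 65176571 to 65269989, minus strand) had 105.6, 154.0 and 184.8 CPM in the lowest, median and highest control heart. In IDA hearts they were 73.5, 95.1 and 121.7 CPM, and 6 of the 10 were below the lowest control heart. This came to a log2 fold change of -0.71 ± 0.10 (SE, adjusted p = 1.95e-06). It was -0.46 with the length correction (adjusted p = 0.000169) and -0.45 with length and GC correction (adjusted p = 0.00024). Uncorrected, the coactivator was thus lower and its DNA-binding partner *Srf* higher in the same hearts.

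*Tbx20* (chromosome 9, 24720812 to 24774303, minus strand), a T-box factor needed for upkeep of the adult heart muscle, had 194.8, 250.5 and 285.7 CPM in the lowest, median and highest control heart. For IDA hearts they were 110.9, 135.7 and 198.2 CPM, and 9 of the 10 were below the lowest control heart. The test gave a log2 fold change of -0.73 ± 0.11 (SE, adjusted p = 5.79e-06). It was -0.35 with the length correction (adjusted p = 0.00119) and -0.25 with length and GC correction (adjusted p = 0.00776).

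*Tbx5* (chromosome 5, 119834663 to 119885218, plus strand), the T-box factor mutated in Holt-Oram syndrome and a regulator of atrial and conduction genes, had 75.7, 83.5 and 107.1 CPM in the lowest, median and highest control heart. Those of IDA hearts were 66.5, 82.3 and 120.3 CPM, a wider range that covered that of the controls. In the fit, the log2 fold change stood at -0.02 ± 0.08 (SE, adjusted p = 0.819), with a 95% interval of -0.19 to 0.15. It did not pass the test with the length correction (0.10, adjusted p = 0.289) or with length and GC correction (0.07, adjusted p = 0.487). Of the pair of T-box factors, *Tbx20* passed the test and *Tbx5* did not, and the difference between their changes was not tested.

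*Gata4* (chromosome 14, 63198915 to 63245260, minus strand), a zinc finger factor of the hypertrophic response, had 235.2, 254.7 and 270.6 CPM in the lowest, median and highest control heart. Among IDA hearts they were 239.6, 257.0 and 273.0 CPM. The groups overlapped nearly whole, and the coefficient of variation was 5.07% in control and 3.63% in IDA hearts, the former being the smallest of the 10 factors in control hearts. This came to a log2 fold change of 0.01 ± 0.03 (SE, adjusted p = 0.714), with a 95% interval of -0.05 to 0.08. It was 0.07 with the length correction (adjusted p = 0.1) and -0.13 with length and GC correction (adjusted p = 0.0137), where *Gata4* was called lower. With the length correction and the library-number run as a covariate it was called higher (0.084, adjusted p = 0.022).

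*Nkx2-5* (chromosome 17, 26838665 to 26841565, minus strand), the homeodomain factor that acts with GATA4 and TBX5, had 79.7, 86.3 and 102.7 CPM in the lowest, median and highest control heart. The IDA hearts had 107.3, 122.1 and 136.4 CPM. Every IDA heart was above every control heart. The test gave a log2 fold change of 0.50 ± 0.05 (SE, adjusted p = 2.07e-07) and 0.24 with the length correction (adjusted p = 6.5e-05). The joint correction gave 0.01 (adjusted p = 0.836, 95% interval -0.07 to 0.10). *Nkx2-5* had the shortest counted exons of the 10 factors (1524 bp) and the highest GC content (67.1%).

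*Hand2* (chromosome 8, 57320983 to 57324517, plus strand), a helix-loop-helix factor known for the right ventricle, had 60.4, 69.1 and 93.0 CPM in the lowest, median and highest control heart. IDA hearts stood at 79.4, 83.1 and 99.8 CPM, all above the control mean and 2 above the highest control heart. In the fit, the log2 fold change stood at 0.24 ± 0.07 (SE, adjusted p = 0.003). The call did not hold with the length correction (0.12, adjusted p = 0.14), and the value was -0.087 with length and GC correction (adjusted p = 0.376). In GENCODE, *Hand2* shares exon bases with the antisense gene *Hand2os1*, and reads were counted without strand, so reads from the pair cannot be told apart there.

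**Figure D2:**
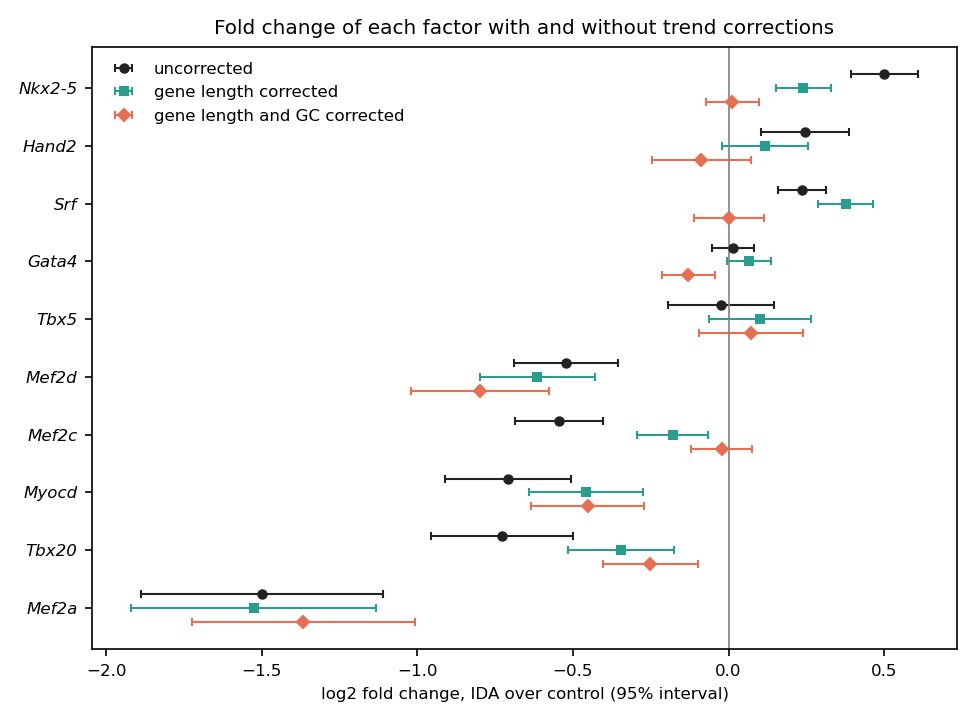
Log2 fold change of IDA over control (horizontal axis) with its 95% interval for each transcription factor (vertical axis), uncorrected (circles), with the gene length correction (squares) and with the gene length and GC correction (diamonds). *Mef2a*, *Mef2d*, *Tbx20* and *Myocd* stay left of 0 in all 3 fits, and the intervals of *Nkx2-5*, *Srf* and *Hand2* reach 0 after the joint correction.

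Base composition varied widely over the 10 factors. GC content of the counted exons was 41.1% in *Mef2c*, 43.3% in *Tbx20*, 44.5% in *Mef2a*, 49.8% in *Myocd*, 51.3% in *Tbx5*, 57.3% in *Gata4*, 59.1% in *Mef2d*, 61.2% in *Hand2*, 64.4% in *Srf* and 67.1% in *Nkx2-5*. Over the 10 factors, the uncorrected log2 fold change had a Spearman's rho of 0.867 with GC content and of -0.588 with exonic length. *Mef2d* did not follow this order. Its GC content was above that of *Gata4* and its log2 fold change was -0.52, where the decile of all genes with a median GC content of 60.1% had a median of 0.29. *Mef2a* also lay away from genes of like exonic length (2874 bp), since the decile of genes with a median length of 2683 bp had a median log2 fold change of 0.06.

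**Figure D3:**
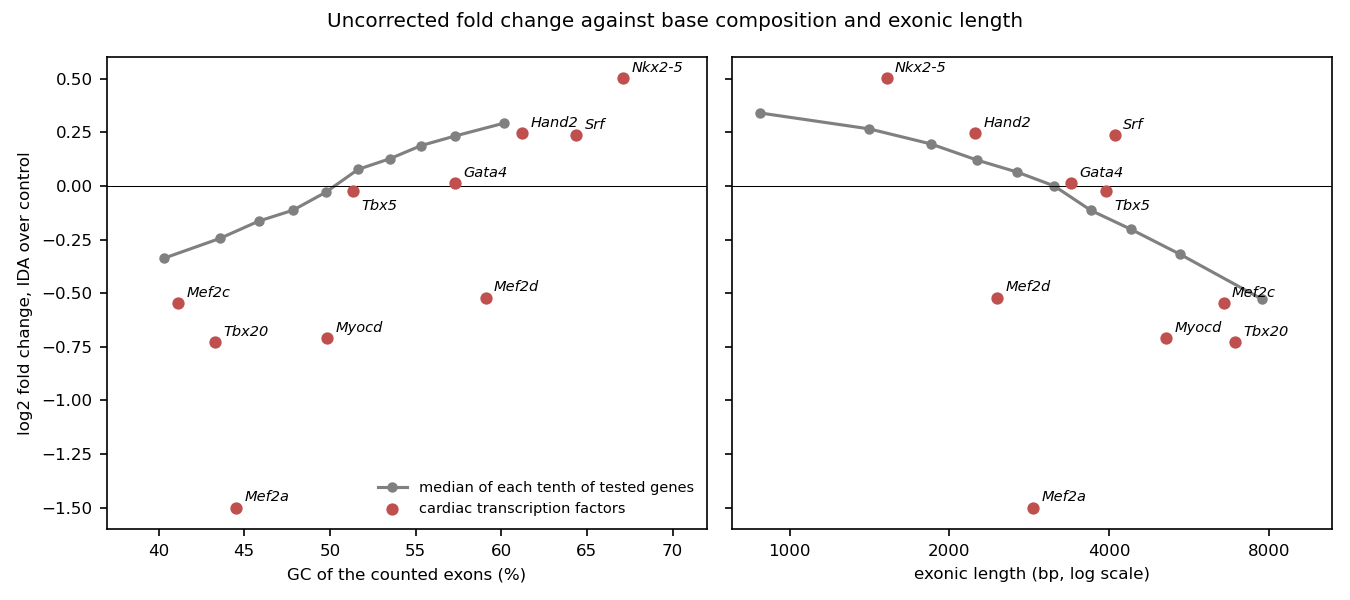
Uncorrected log2 fold change of IDA over control (vertical axis) against the GC content of the counted exons in % (left) and exonic length in bp on a log scale (right), for the 10 transcription factors (red) and as the median of each decile of all tested genes (grey line). The *Mef2a*, *Mef2c*, *Mef2d*, *Tbx20* and *Myocd* points lie below the grey line in both panels, and the *Srf* point lies above it on the right and near its end on the left.

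Levels were also set in order per kilobase of counted exon (RPKM), by their mean on the log2 scale. In control hearts the order was *Mef2d* (80.4 RPKM), *Gata4* (75.3), *Srf* (62.5), *Nkx2-5* (57.2), *Mef2a* (56.3), *Tbx20* (35.5), *Hand2* (32.5), *Myocd* (30.3), *Mef2c* (26.8) and *Tbx5* (21.7). Of the 9 neighboring pairs, 5 differed beyond their spread by a two-sided exact permutation test of sign flips within hearts. The pairs that did not pass were *Mef2d* with *Gata4* (adjusted p = 0.114), *Nkx2-5* with *Mef2a* (0.678), *Tbx20* with *Hand2* (0.309) and *Hand2* with *Myocd* (0.385). In IDA hearts *Nkx2-5* came first (81.0 RPKM), followed by *Gata4* (76.04), *Srf* (73.5), *Mef2d* (56.1), *Hand2* (38.5), *Tbx5* (21.4), *Tbx20* (21.5), *Mef2a* (19.95), *Myocd* (18.5) and *Mef2c* (18.3). There 3 of the 9 neighboring pairs passed the exact test, and no neighboring pair among the last 5 genes did. These tests cover the spread between hearts, and not how much of each gene's exons was counted.

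The make-up of the MEF2 family was taken as each paralog's share of the summed RPKM of *Mef2a*, *Mef2c* and *Mef2d*. The sum was 163.6 ± 20.5 RPKM in control and 94.4 ± 19.0 RPKM in IDA hearts (SD, n = 10, two-sided permutation test, p = 3e-05). The share of *Mef2a* was 34.1 ± 3.47% in control hearts, from 27.2 to 38.0%, and 20.4 ± 4.45% in IDA hearts, from 12.3 to 26.1%. The ranges did not overlap, and the difference of -13.7 percentage points had an adjusted p of 3e-05 by permutation test. The share of *Mef2d* was 49.4 ± 2.49% in control and 59.8 ± 3.23% in IDA hearts (10.4 points, adjusted p = 3e-05 by permutation test, higher than the control mean in 10 of 10 IDA hearts). The share of *Mef2c* was 16.5 ± 1.33% and 19.8 ± 2.90% (3.27 points, adjusted p = 0.00141 by permutation test). After the joint correction the share of *Mef2a* still differed by -10.7 points (adjusted p = 6e-05 by permutation test) and that of *Mef2c* by 10.3 points (adjusted p = 0.000135), while that of *Mef2d* differed by 0.34 points (adjusted p = 0.695). *Mef2a* therefore made up a smaller part of the family transcripts in IDA hearts in each version. The larger share lay with both paralogs without correction, and the difference of *Mef2d* did not pass the test after the joint correction.

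Within each diet group, 8 pairs of factors that bind together or belong to a family were correlated over the 10 hearts after the length correction, 16 relations in all. *Mef2a* and *Mef2d* were the pair that passed, in both groups. In control hearts Pearson's r was 0.906 (permutation test, adjusted p = 0.00512) and Spearman's rho 0.758 (adjusted p = 0.122), with r = 0.681 without the 2 hearts farthest from the median of *Mef2a*. Those 2 hearts, control replicates 2 and 6, had the lowest *Mef2a* of the group, and the control relation rests in part on them. In IDA hearts r was 0.917 (permutation test, adjusted p = 0.00464), rho 0.939 (adjusted p = 0.00416), and r = 0.946 without the 2 farthest hearts. *Mef2c* had no such relation with *Mef2a* (r = 0.0128 in control and 0.237 in IDA hearts) or with *Mef2d* (0.162 and 0.211). Under the joint correction *Mef2a* and *Mef2d* had r = 0.916 in control and 0.924 in IDA hearts. The control rho was then 0.636 (permutation test, adjusted p = 0.216), and r was 0.582 without the 2 farthest hearts. The 2 genes come from the same libraries, and values in a heart share its depth and trends. Without any correction, all 3 MEF2 pairs of control hearts passed (adjusted p = 0.0144 for *Mef2a* with *Mef2d* and 0.031 for each of the other pairs), and so did *Mef2a* with *Mef2d* in IDA hearts (adjusted p = 0.00752, permutation tests). Spearman's rho passed for none of these control pairs (adjusted p = 0.2 for *Mef2a* with *Mef2d* and 0.285 for each of the other pairs, permutation tests). Without the 2 farthest hearts, the uncorrected control r was 0.532 for *Mef2a* with *Mef2d*, 0.22 for *Mef2a* with *Mef2c* and 0.163 for *Mef2c* with *Mef2d*, so these relations rest on those hearts. The relations of *Gata4* with *Nkx2-5*, *Gata4* with *Tbx5*, *Nkx2-5* with *Tbx5*, *Srf* with *Myocd* and *Tbx5* with *Tbx20* did not pass in either group, with or without the length correction.

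**Figure D4:**
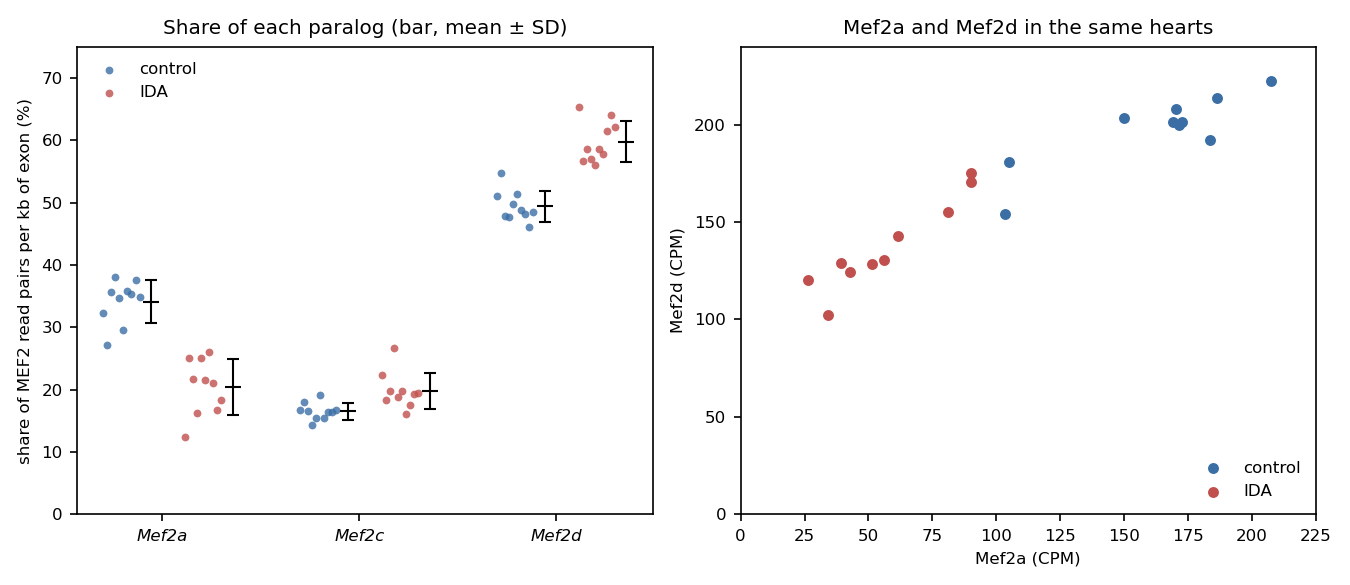
Left, share of *Mef2a*, *Mef2c* and *Mef2d* in the MEF2 read pairs per kilobase of exon (vertical axis, %) in each control (blue) and IDA (red) heart, with mean ± SD. Right, *Mef2d* against *Mef2a* in the same hearts (both in CPM, uncorrected), where the IDA hearts lie at lower left. Both genes move together among the IDA hearts, and among control hearts the relation rests on the hearts lowest in *Mef2a*.

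A list of 28 relatives and other cardiac transcription factors was read beside the 10, of which 23 were tested. Of these 23, 15 were called (67.5% of all genes tested), 4 higher (35.0%) and 11 lower (32.5%), with a median log2 fold change of -0.19. Under the joint correction 10 were called (45.2% of all genes), 1 higher (19.7%) and 9 lower (25.5%), a count near the background. *Prox1*, a homeobox factor of heart muscle and lymphatic vessels, had a log2 fold change of -0.98 ± 0.15 (SE, adjusted p = 7.54e-06) and of -0.86 with length and GC correction (adjusted p = 4.54e-05). *Tead1*, the DNA-binding partner of YAP, was lower by the same test (-0.89, adjusted p = 3.44e-07, and -0.36 after the joint correction). *Tbx18*, a T-box factor of the sinus node and epicardium, was also lower (-0.81, adjusted p = 2.26e-06, and -0.52 after the joint correction).

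Of 12 coactivators of the factors, 9 were called, beside 67.5% of all genes tested, a share near the background. They were 1 higher (35.0% of all genes) and 8 lower (32.5%), with a median log2 fold change of -0.27. Jointly corrected, 10 were called (45.2% of all genes), 2 higher (19.7%) and 8 lower (25.5%). *Crebbp* and *Ep300*, which encode the histone acetyltransferases CBP and p300, stood at 0.412 (adjusted p = 1.56e-06) and 0.499 (adjusted p = 8.31e-07) of the control level, and *Med13*, which encodes a subunit of the Mediator kinase module, at 0.458 (adjusted p = 1.71e-07). After the joint correction the log2 fold changes were -1.02 for *Crebbp*, -0.57 for *Ep300* and -0.38 for *Med13*, and each was still called.

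Of 12 corepressors, 10 were called (67.5% of all genes tested), 4 higher (35.0%) and 6 lower (32.5%), and with length and GC correction 6 were called (45.2% of all genes), 1 higher (19.7%) and 5 lower (25.5%). *Hdac4*, a class IIa deacetylase that binds MEF2 proteins, was lower (log2 fold change -0.63, adjusted p = 0.000132, and -0.70 after the joint correction, adjusted p = 0.000113). *Zfpm2*, whose product FOG2 binds GATA4, was lower (-0.52, adjusted p = 4.31e-05, and -0.22 after the joint correction, adjusted p = 0.0106). *Ncor1*, a nuclear receptor corepressor, was lower as well (-0.73, adjusted p = 3.61e-07, and -0.14 after the joint correction, adjusted p = 0.0102).

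Known target genes did not follow a single direction. Of 18 textbook targets of GATA4, NKX2-5 and TBX5, 12 were called, a share close to the 67.5% of all genes tested. They were 7 higher (35.0% of all genes) and 5 lower (32.5%), with a median log2 fold change of 0.07. The joint correction also called 12 (45.2% of all genes), 5 higher (19.7%) and 7 lower (25.5%). The split moved with the setting, to 1 higher and 10 lower with a library size covariate. It was 10 higher and 4 lower within the first of the library-number runs described below and 1 higher and 5 lower within the second. The share of all genes called in these settings was not taken, so a move particular to the targets cannot be told from a general one. *Chrm2*, the muscarinic receptor through which the vagus slows the heart, had 0.309 of the control level (log2 fold change -1.69, standard error 0.21, adjusted p = 6.43e-07), and -1.82 after the joint correction (adjusted p = 2.01e-06). *Gja5*, the atrial and conduction system connexin, was higher (0.49, adjusted p = 0.00862, and 0.52 after the joint correction). *Gja1*, the ventricular connexin, was lower (-0.23, adjusted p = 0.000996), and its value after the joint correction was -0.05 (adjusted p = 0.333).

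Of 12 textbook MEF2 targets, 5 were called, beside 67.5% of all genes tested, 2 higher (35.0% of all genes) and 3 lower (32.5%), with a median log2 fold change of 0.01. The list holds factors studied here, *Gata4*, which was not called, and *Myocd*, which is among the 3 called lower. The joint correction called 7 (45.2% of all genes), 3 higher (19.7%) and 4 lower (25.5%). *Myocd*, described above, was the only one of the 12 called in the same direction without and with the length correction. The count of 5 fell to 3 without control replicate 4, 6, 7 or 9 or without IDA replicate 1.

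Of 18 targets of SRF and myocardin, 8 were called, beside 67.5% of all genes tested, 6 higher (35.0% of all genes) and 2 lower (32.5%), with a median log2 fold change of 0.11. The list holds *Srf* itself, which is among the 6 called higher. The joint correction called 8 (45.2% of all genes), 4 higher (19.7%) and 4 lower (25.5%). The immediate early genes *Fos* and *Junb* were higher (log2 fold changes 1.08, adjusted p = 0.00618, and 0.65, adjusted p = 0.000193). After the joint correction *Fos* was 0.93 (adjusted p = 0.0291) and *Junb* 0.26 (adjusted p = 0.129). *Vcl*, which encodes the adhesion protein vinculin, was lower (-0.43, adjusted p = 2.09e-06, and -0.13 after the joint correction, adjusted p = 0.00392).

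Markers of cell types were read in the same hearts. The marker lists share genes with the target lists above. *Myh6*, *Tnnt2*, *Tnni3*, *Actc1*, *Myl2* and *Pln* (cardiomyocyte) and *Nppa* (atrial) are also listed as GATA4, NKX2-5 and TBX5 targets. *Myh11*, *Acta2*, *Tagln* and *Cnn1* (smooth muscle) are also listed as SRF and myocardin targets. The sums of those lists are therefore not separate from the targets. The summed level of 8 cardiomyocyte markers was 5195 to 7870 CPM in control and 4588 to 6721 CPM in IDA hearts. Of these, 4 of 8 were called (67.5% of all genes tested), 3 higher (35.0%) and 1 lower (32.5%). With the length correction 6 were called (54.1% of all genes), 2 higher (24.6%) and 4 lower (29.5%). With the joint correction 7 were called (45.2% of all genes), 3 higher (19.7%) and 4 lower (25.5%). The 6 atrial markers summed to 266.3 to 578.6 CPM in control and 320.1 to 752.3 CPM in IDA hearts. Of those tested, 2 of 5 were called, both higher (35.0% of all genes). With the length correction (54.1%) or the joint correction (45.2%), 0 of 5 were called. Endothelial markers summed to 1361 to 1546 CPM in control and 1242 to 1488 CPM in IDA hearts, and fibroblast markers to 1367 to 1689 CPM and 1334 to 1606 CPM. Leukocyte markers summed to 322.6 to 380.2 CPM and 335.8 to 409.9 CPM, and smooth muscle and pericyte markers to 910.3 to 1134 CPM and 801.6 to 1066 CPM. Uncorrected, 5 of 6 endothelial, 2 of 6 fibroblast, 4 of 5 tested leukocyte and 3 of 6 smooth muscle and pericyte markers were called (67.5% of all genes). With the joint correction these counts were 2 of 6, 3 of 6, 0 of 5 and 2 of 6 (45.2% of all genes). The erythroid markers counted summed to 51.2 to 124.9 CPM in control and 134.0 to 561.1 CPM in IDA hearts, and did not overlap. *Hba-a1* and *Hba-a2* were at 0 in every heart, and 3 of 3 tested markers were called higher (35.0% of all genes). Epicardial markers lay at 12.3 to 53.9 CPM and 8.60 to 95.8 CPM, fat markers at 52.1 to 95.5 CPM and 75.5 to 102.7 CPM, and skeletal muscle markers at 1.23 to 3.47 CPM and 1.32 to 17.9 CPM. Of those tested, 1 of 4 epicardial, 1 of 4 fat and 0 of 1 skeletal muscle markers were called without correction (67.5% of all genes). Lung markers stayed below 1 CPM, with *Sftpd*, *Scgb1a1* and *Cldn18* at 0. The part of cell composition in the changes of the 10 factors was not tested.

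The column names carry library numbers that fall into 2 unbroken runs, the first with 5 control and 7 IDA hearts and the second with 5 control and 3 IDA hearts. What the numbers stand for is not given in the sources used here. Within the first run alone, the log2 fold changes were -1.51 for *Mef2a*, -0.58 for *Mef2c*, -0.50 for *Mef2d*, -0.76 for *Tbx20*, -0.57 for *Myocd*, 0.56 for *Nkx2-5*, 0.30 for *Srf*, 0.38 for *Hand2*, 0.05 for *Gata4* and -0.17 for *Tbx5*. Within the second they were -1.48 for *Mef2a*, -0.46 for *Mef2c*, -0.51 for *Mef2d*, -0.66 for *Tbx20*, -0.91 for *Myocd*, 0.42 for *Nkx2-5*, 0.18 for *Srf*, 0.08 for *Hand2*, -0.02 for *Gata4* and 0.22 for *Tbx5*. The call of *Hand2* did not hold in the second run (adjusted p = 0.576), and the other 7 calls held in both. No factor differed in its fold change between the runs after adjustment over all genes. The smallest adjusted p of that interaction among the 10 factors was 0.685, for *Tbx5* (difference 0.41, unadjusted p = 0.0138).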

How the data were processed

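Whole-heart RNA-seq of 10 control and 10 IDA mice was analysed. Per the labels and the study's methods, STAR placed the paired reads on mm10, samtools took out PCR duplicates, and featureCounts (1.4.5-p1) counted the remaining pairs over each gene's exons, ignoring strand. The authors deposited raw counts for 23420 genes with exon coordinates. Diet groups came from the labels. The study set aside, as contaminated, a mouse of each group without naming it, so all 20 were kept, and the values here may include both. P-values of the diet comparisons set group differences against the spread between these hearts. Those of the level order rest on sign flips of differences within hearts, and those of the correlations on shuffles within a diet group. The 10 factors and all gene lists were chosen with earlier results of these data known.

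The 13590 genes that reached 1 CPM in 10 hearts or more were tested (9830 were left out) in edgeR (version 4.0.16, R 4.3.3) with TMM factors and the quasi-likelihood test, diet as the only factor and Benjamini-Hochberg adjustment. DESeq2 (version 1.42.0) was the alternative. Trend corrections entered loess curves (span 0.5, degree 1) of each heart's deviation on log2 exonic length, or on length and GC content, as offsets. GC content was read from GENCODE transcripts over the counted exons for 98.5% of tested genes, and genes without it kept the length trend alone. Corrections for GC alone, the library-number runs and the joint correction of shares and correlations were added after the data were examined. So was the replicate block with length and GC correction. Permutation tests used 100000 resamples and were two-sided. Log2 CPM used a prior count of 2. The uncorrected and length-corrected edgeR fits were run on simulated counts, without and with a length trend. No GC trend was simulated, and the joint correction, the GC correction alone and DESeq2 were not run on simulated counts. All 10 factors are named. From each other list, up to 3 genes with the largest absolute fold change among those called in the same direction without and with the length correction are named. Total counts per heart were 6682177 to 8960688.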

Additional observations from a re-analysis of the deposited data

Results flagged for a closer look

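Among 26 sets of 10 hearts checked, 3 had a highest heart far from the others by Dixon's test at 95%, and chance alone gives about 1 in 20. *Nkx2-5* was at 102.7 CPM in control replicate 5, and at 79.7 to 91.4 CPM in the other control hearts. *Tbx5* was at 107.1 CPM in control replicate 9, and at 75.7 to 90.5 CPM in the other control hearts. *Tbx5* was at 120.3 CPM in IDA replicate 3, and at 66.5 to 92.2 CPM in the other IDA hearts. The summed atrial markers were 752.3 CPM in IDA replicate 3, the highest of the 20 hearts, and 558.2 CPM in control replicate 9, the second highest of the control hearts. The part of atrial tissue in these *Tbx5* values was not tested.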

How the results depend on the processing

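The number of factors called was 8 by DESeq2, with p below 0.01 in both packages, under 2 other normalizations and 2 other filters, in each of 20 fits that left out a heart and in each of 40 drawn fits that left out a heart of each group (the other pairs, and such pairs for the gene lists, were not run). *Mef2a*, *Mef2d*, *Tbx20* and *Myocd* were called lower in every setting run, with log2 fold changes of -1.60 to -1.31, -0.81 to -0.46, -0.80 to -0.25 and -0.91 to -0.44. It was 7 with the length correction, with a library size covariate, with GC correction alone and in the second library-number run, and 7 to 8 when a heart was left out under the length correction. With length and GC correction, 5 factors were called, 5 also with the replicate block added. *Gata4* was called lower with length and GC correction (-0.13), GC correction alone (-0.21) and the replicate block and both trends (-0.13). *Srf* was called lower with GC correction alone (-0.15). With the replicate block and both trends *Srf* was at -4.42e-06 (standard error 0.048), which is about 0. *Hand2* turned to -0.087, -0.059 and -0.091 in the settings listed for *Gata4*, and none of these values passed the test. Values of *Gata4* and *Tbx5* that did not pass the test also changed sign, to -0.024 with a library size covariate and -0.021 in the second run for *Gata4*, and for *Tbx5* to 0.10 with the length correction, 0.072 with length and GC correction, 0.079 with a library size covariate, 0.0066 under upper-quartile normalization and 0.22 in the second run, and some leave-one-out fits of both did so too. The call of *Hand2* was also lost with a library size covariate (0.15, adjusted p = 0.0826). For the lists, 6 corepressors were called with length and GC correction (45.2% of all genes). There were 6 in the second library-number run and 5 with the replicate block and both trends. For GATA4, NKX2-5 and TBX5 targets the count was 7 with GC correction alone (60.6% of all genes) and 6 in the second run. For MEF2 targets it was 2 with p below 0.01 in both packages, 8 with the run covariate and length correction and 8 with the replicate block and both trends. Without a heart in turn, 3 to 7 MEF2 targets were called. Apart from the length, GC and joint corrections, the share of all genes called was not taken for these settings. Their counts of factors and list genes therefore have no background beside them. The share of *Mef2d* differed by 0.34 points with length and GC correction. In the IDA order of levels 3 neighboring pairs passed, and without correction 4 of 16 correlations passed. The cause of these changes was not tested.

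Replicate numbers are shared between the groups. Same-numbered hearts had correlations of deviations from -0.278 to 0.264, with 3 of 10 pairs over 0.1 and 4 hearts closest to their own number. Replicates 1 to 3 of both groups lay in the second library-number run, and replicates 6 to 10 of both groups in the first. The replicate block therefore overlaps with the run, and what else same-numbered hearts share was not tested. With the replicate block 8 factors were called, and 7 with the block and the length correction.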
